A study of Homo sapiens with 18 samples.

Results

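The interferon regulatory factor (IRF) family was followed as 8 genes, IRF1, IRF2, IRF3, IRF4, IRF5, IRF7, IRF8 and IRF9, taken by their symbols from a table of 56609 genes. RNA had been sequenced from 3 EBV-positive human cell lines established from chronic lymphocytic leukemia (CLL), HG3, MEC2 and PCL12. Each line was represented by 3 samples stimulated for 4 h with 2.5 μg·mL−1 of ODN-2006, a class B CpG oligonucleotide that activates human Toll-like receptor 9 (TLR9), and by 3 unstimulated samples, so that 6 groups of 3 libraries were compared. The question was which genes respond to TLR9 stimulation in each line. A line derives from a single leukemia, and P values here cover no more than the spread between samples. That spread, which the models share over lines and in part over genes, may be technical. Nothing states that the samples came from separate cultures.

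IRF proteins bind DNA elements that carry repeated GAAA motifs. Some members, above all IRF3, IRF5 and IRF7, are activated by phosphorylation downstream of innate receptors and switch on interferon and cytokine genes, so that their activity can change without any change of their mRNA. TLR9 signals through the adaptor MYD88, which engages IRF5 and IRF7 beside NF-κB. IRF9 joins STAT proteins in the complex ISGF3 that carries the signal of type I interferon, IRF1 activates and IRF2 mostly restrains interferon-response genes, and IRF4 and IRF8 are lymphoid members that pair with PU.1 or SPIB on composite ETS-IRF elements and with BATF on AP-1-IRF elements during B-cell differentiation.

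Library totals ranged from 20382943 to 67308932 counts. Counts of mitochondrial genes took 20.2% of HG3 unstimulated replicate 2 and 19.7% of MEC2 CpG replicate 2, and between 2.82% and 9.28% elsewhere. B-cell markers such as MS4A1, CD79A and PAX5 summed to between 1730 and 2800 CPM (counts scaled to the size of the library with the TMM factors of edgeR) in every library, whereas T-cell, myeloid and plasmacytoid dendritic cell markers summed to at most 2.53 CPM. A set of 45 genes abundant in MEC2 and nearly absent from both PCL12 libraries of replicate 1 stood at 29.0% to 31.3% of their MEC2 level in the 4 PCL12 libraries of replicates 2 and 3, so values of PCL12 replicate 1 alone are given where they change a result. The same 45 genes stood at 6.61% to 14.2% of their MEC2 level in HG3, and 32 genes abundant in PCL12 replicate 1 and nearly absent from MEC2 stood at 67.7% to 79.5% of their replicate 1 level in those 4 libraries. Genes of both sets were thus present in PCL12 replicates 2 and 3, and every PCL12 mean and comparison has this limit. The part that the mitochondrial share and these MEC2-abundant genes had in the results was not tested beyond leaving out the libraries concerned. In bulk RNA, a change in the share of cells that carry a transcript and a change in the amount per cell cannot be told apart.

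All 8 genes passed the filter on low counts. IRF4, the regulator of plasma-cell differentiation, had the highest level of the family in the mean of each of the 6 groups, both by CPM and by CPM per kilobase of annotated exon. Unstimulated cells held 208 ± 73.0 CPM per kilobase of IRF4 in HG3, 169 ± 44.3 in MEC2 and 122 ± 45.2 in PCL12 (SD, n = 3), which was 62.9%, 56.9% and 44.1% of the family's sum on that scale. The next gene was IRF5 in HG3 (38.2 ± 5.91 CPM per kilobase) and in PCL12 (44 ± 7.06), but IRF8 in MEC2 (44.2 ± 9.23), and in all 3 lines the range of IRF4 over the libraries did not overlap that of the gene below it. Below IRF4, the ranges of IRF5, IRF7, IRF3 and IRF8 overlapped from one neighbour to the next in unstimulated HG3, and those of IRF5, IRF8, IRF7 and IRF3 in unstimulated PCL12. In unstimulated MEC2 IRF8 stood clear of IRF7, IRF7 and IRF3 overlapped, and IRF5 lay below both at 14.8 ± 0.871 CPM per kilobase, whereas by CPM it lay above both (105 against 87.4 for IRF3 and 76.3 for IRF7). IRF1 and IRF2 lay between 6.92 and 9.28 CPM per kilobase as means of unstimulated groups, and their ranges overlapped in each line. IRF9 was the lowest, at 0.247 to 0.389 CPM per kilobase. The labels name a kit that sequences tags near the 3′ end, for which counts need not scale with length, so the order per kilobase and the order by CPM were both computed, and they put IRF4 first and IRF9 last in every group.

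**Figure D1:**
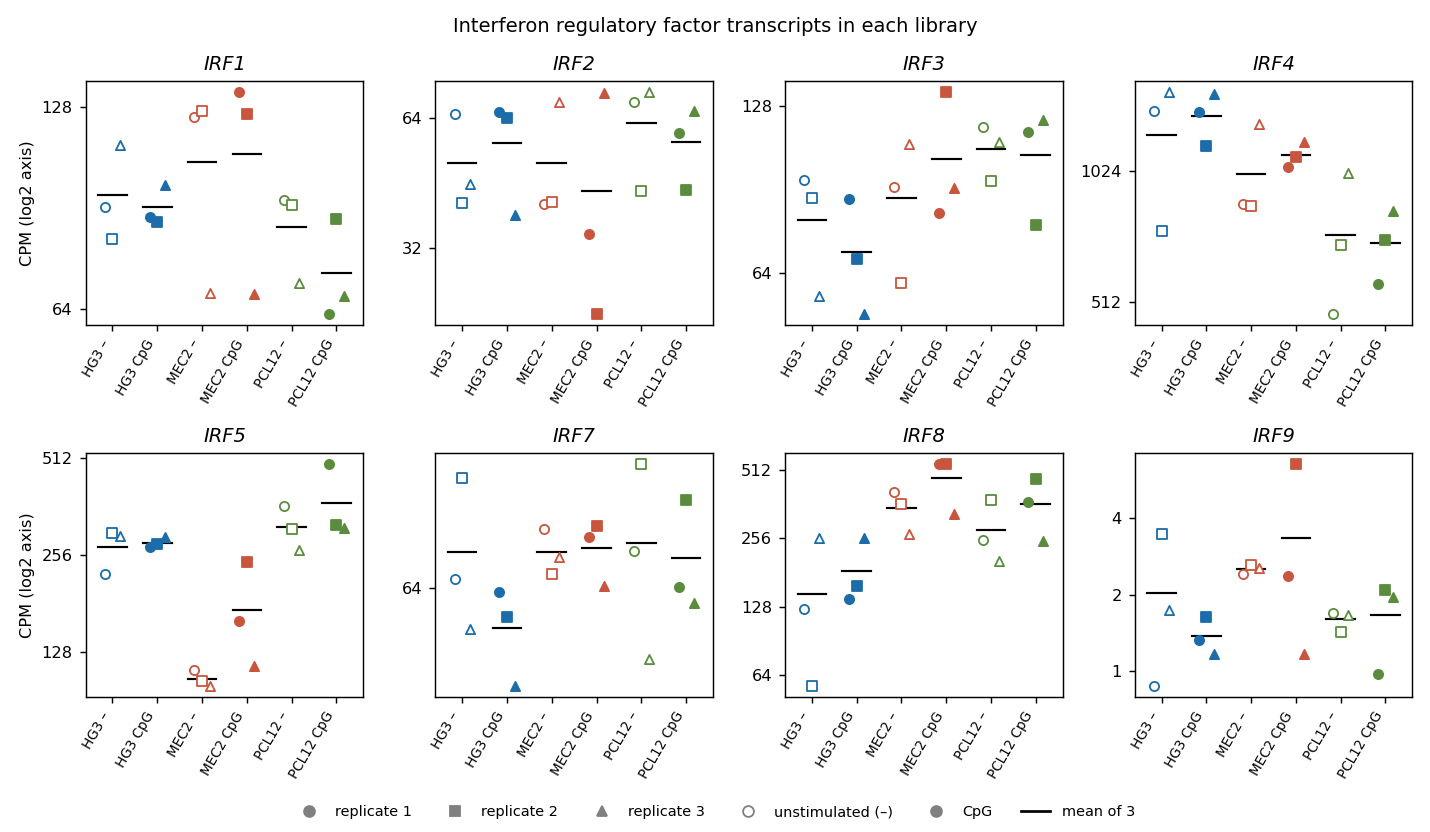
Level of each IRF gene in the 18 libraries in CPM on a log2 axis, 1 panel a gene; open symbols are unstimulated and filled symbols CpG-stimulated libraries, the shape gives the replicate and the bar the mean of 3. IRF4 reaches 1560.1 CPM in HG3, IRF5 is lowest in unstimulated MEC2 (100.3 to 112.3 CPM), and IRF9 stays between 0.879 and 6.48 CPM.

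The promoters below show the members that the results below turn on, IRF5 and IRF8, together with IRF1 because it held a match to a STAT element. RefSeq windows on GRCh38.p14 run from 250 bases before to 50 bases after an annotated start, and 9 windows of 5 members were given. Capitals mark a match to 1 of 4 searched motifs, on either strand. The IRF5 window chr7:128940420-128940719 (plus strand) is 1 of 4 given for IRF5, which lies at chr7:128937457-128950038. The IRF1 window is chr5:132490724-132491023 (minus strand), and the IRF8 window chr16:85902765-85903064 (plus strand) lies inside the gene (chr16:85899116-85922606), at an annotated start downstream of the first one.
IRF5: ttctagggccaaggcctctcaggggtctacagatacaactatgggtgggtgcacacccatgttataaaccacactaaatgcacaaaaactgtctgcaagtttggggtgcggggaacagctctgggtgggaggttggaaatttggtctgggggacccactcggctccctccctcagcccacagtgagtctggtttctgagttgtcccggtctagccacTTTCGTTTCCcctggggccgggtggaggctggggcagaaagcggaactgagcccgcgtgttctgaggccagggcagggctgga
IRF1: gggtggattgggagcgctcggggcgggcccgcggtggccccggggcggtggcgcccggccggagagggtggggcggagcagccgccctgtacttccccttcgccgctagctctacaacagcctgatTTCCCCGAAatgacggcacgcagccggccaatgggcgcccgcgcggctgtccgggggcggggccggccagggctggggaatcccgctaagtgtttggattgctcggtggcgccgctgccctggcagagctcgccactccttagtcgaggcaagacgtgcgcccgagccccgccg
IRF8: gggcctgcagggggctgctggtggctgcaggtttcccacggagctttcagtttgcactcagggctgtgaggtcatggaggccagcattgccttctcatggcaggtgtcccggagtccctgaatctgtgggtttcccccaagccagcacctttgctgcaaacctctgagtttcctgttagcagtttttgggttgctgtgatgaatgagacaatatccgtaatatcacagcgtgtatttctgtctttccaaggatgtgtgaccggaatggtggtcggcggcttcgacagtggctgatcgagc
The capitals in IRF5 are the reverse complement of a composite ETS-IRF element, GGAA followed after 2 bases by GAAA, 33 bases before the start, a motif held by 2.82% of 35116 promoter windows. The capitals in IRF1 are a GAS element, TTCNNNGAA, the sequence that STAT dimers bind, 124 bases before the start, and 7.66% of windows hold one. The IRF9 window held a GAS match too. Neither an ISRE-like repeat (GAAA followed after 2 bases by GAAA, 3.57% of windows) nor an NF-κB motif (GGG followed after 2 bases by TTTCC, 1.91%) was present in any of the 9 windows. The IRF8 windows held none of the 4 motifs, but both lie inside the gene. The promoter at the first annotated start of IRF8 was not searched, and IRF2, IRF3 and IRF7 had no window. The composite and ISRE-like motifs differ in their second letter, so that no stretch matches both.

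No IRF gene passed the test within a line after 4 h of CpG stimulation. At an adjusted p of 0.05 (edgeR quasi-likelihood, Benjamini-Hochberg over 31872 genes), 0 of 8 members were called in HG3 (0.00314% of all genes called), 0 in MEC2 (0.00314%) and 0 in PCL12 (0%), and DESeq2 and limma-voom also called 0 in each line. At a nominal P value under 0.05, the count was 0 in HG3 (3.73% of all genes), 1 in MEC2 (2.46%) and 0 in PCL12 (2.09%). With the replicate number as a block it was 2 in HG3 (3.59% of all genes), IRF7 (−0.49, nominal P value 0.0176) and IRF8 (0.52, nominal P value 0.0135), 2 in MEC2 (3.41%), IRF5 (0.65, nominal P value 0.002) and IRF8 (0.42, nominal P value 0.0406), and 0 in PCL12 (1.69%), and none had an adjusted p under 0.05. In the fit without the block, no member met the study's definition of a DEG, a nominal P value under 0.01 with |Log2FC| of at least 1 (0.496%, 0.251% and 0.116% of all genes in HG3, MEC2 and PCL12). The members spanned Log2FC of −0.54 to 0.33 in HG3, −0.22 to 0.71 in MEC2 and −0.23 to 0.38 in PCL12. The precision was limited: for IRF4 in MEC2 the 95% interval of the fold change was 0.731 to 1.68, and for the scarce IRF9 it was 0.548 to 3.24. The same 6 groups were therefore also read as 9 replicate pairs of stimulated and unstimulated cells, because the description of the series assigns each replicate number 1 of each.

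IRF8, which with SPIB and PU.1 shapes germinal-centre and antigen-presenting programs of B cells, was higher in the stimulated sample of 9 of 9 pairs. In HG3 the 3 unstimulated samples held 125.1, 57.5 and 255.9 CPM and their stimulated partners 138.2, 157.8 and 256.8 CPM. In MEC2 the unstimulated values were 409.5, 363.8 and 267.6 CPM and the stimulated values 540.9, 542.6 and 327.6 CPM. In PCL12 they were 252.5, 378.1 and 204.4 CPM against 368.9, 468.1 and 250.3 CPM. The groups overlapped in all 3 lines: in MEC2 the stimulated sample of replicate 3 lay below the unstimulated samples of replicates 1 and 2, although each stimulated sample lay above its own partner.

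Within pairs, the log2 ratio of IRF8 (on CPM plus 0.5) was 0.14, 1.45 and 0.01 for the HG3 pairs, 0.40, 0.58 and 0.29 for MEC2, and 0.55, 0.31 and 0.29 for PCL12. The mean was 0.45 ± 0.42 (SD, n = 9 pairs), a 1.36-fold difference. The exact two-sided sign-flip permutation test over the 9 pairs gave p = 0.00391, the smallest value that 512 flips allow, and 4.46% of all genes had a p under 0.05 in this test. Among all genes 0.298% were higher in all 9 pairs, and 0.732% of the 10659 genes that averaged 5 CPM or more did so. The 1.45 of HG3 replicate 2 rested on the unstimulated library rich in mitochondrial counts, and HG3 replicate 3 showed almost no difference. The Log2FC of IRF8 in HG3, 0.33 over all libraries, was −0.05 without the mitochondria-rich libraries. Without the pairs that contain a library rich in mitochondrial counts, IRF8 was higher in 7 of 7 pairs with a mean log2 ratio of 0.28 and p = 0.0156 in the exact permutation test, again the smallest possible.

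In the model over all genes, the IRF8 effect averaged over the 3 lines was a Log2FC of 0.38 (SE 0.23) with an adjusted p of 1 in edgeR without a replicate block, a fit that called 0 members (0.00941% of all genes called) and had 1, IRF5, at a nominal P value under 0.05 (4.04% of all genes). A fit with the replicate number of each line as a block left 6 residual degrees of freedom. Its SE within a line was 0.2 to 0.22 for every member but IRF9, so it drew the spread largely from many genes together. Its P values, here and in the other results with the block, thus cover the spread of a gene's own pairs only in part. With this block, the averaged IRF8 effect was 0.44 (SE 0.12) with an adjusted p of 0.0433, and IRF8 was the 1 of 8 members called (0.417% of all genes called higher). This call held without the pairs of the mitochondria-rich libraries (0.27, adjusted p = 0.0119 in edgeR with the block, 0.846% called higher), where IRF5 was called as well (0.25, adjusted p = 0.0451) and IRF8 in PCL12 alone reached 0.38 (adjusted p = 0.0499, 0.428% called higher), and it was lost in limma-voom with the block (adjusted p = 0.326) and with PCL12 replicate 1 as the sole PCL12 pair (0.51, adjusted p = 0.376).

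**Figure D2:**
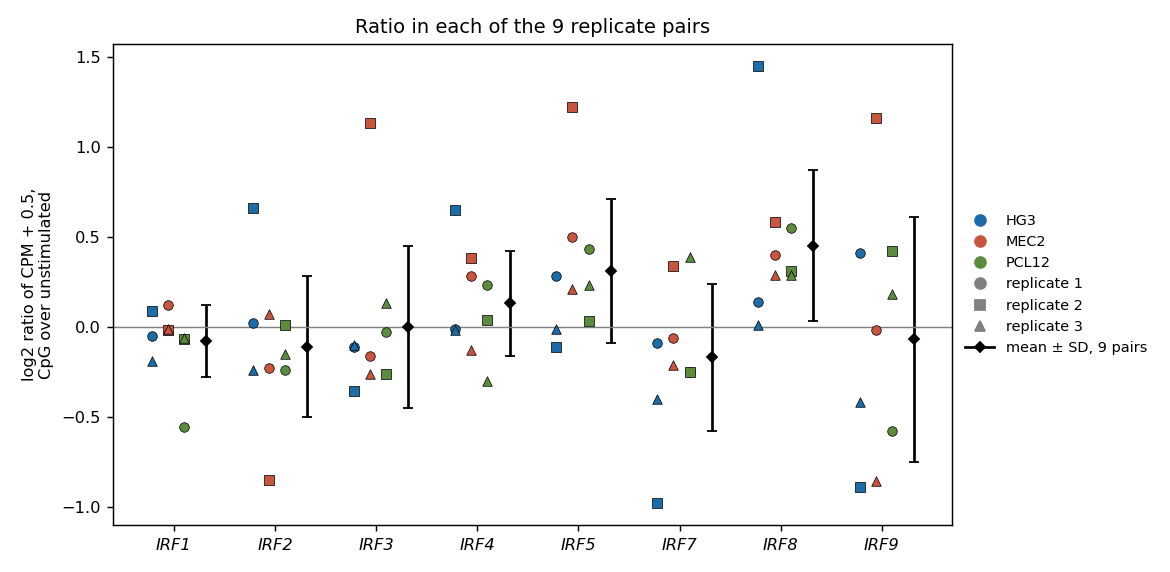
Log2 ratio of CPM + 0.5, CpG-stimulated over unstimulated, for each IRF gene in the 9 replicate pairs; color gives the line and shape the replicate, and the diamond and bar give mean ± SD of 9 pairs. All 9 points of IRF8 lie above 0, from 0.01 to 1.45, and the points farthest from 0 in IRF3, IRF5 and IRF9 belong to MEC2 replicate 2.

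IRF5, the member that MYD88-dependent TLR signals activate directly, had the smallest nominal P value of the family within a line in the fit without the block. In MEC2 the unstimulated samples held 112.3, 103.7 and 100.3 CPM and the stimulated samples 159.4, 242.5 and 115.8 CPM. The 2 groups did not overlap, as was the case for 4.72% of all genes in this line (3.72% in HG3 and 4.55% in PCL12). The Log2FC was 0.71 (SE 0.26, nominal P value 0.0107, adjusted p = 1 in edgeR), a fold change of 1.64. Without MEC2 CpG replicate 2, rich in mitochondrial counts, the Log2FC was 0.39. In HG3 the values were 223.1, 298.4 and 292.8 CPM unstimulated against 271.7, 277.2 and 290.0 CPM stimulated, within the same range, and in PCL12 364.5, 309.1 and 264.4 against 490.2, 316.3 and 309.9 CPM, which overlapped. IRF5 was higher in 7 of 9 pairs with a mean log2 ratio of 0.31 ± 0.40, and the exact sign-flip permutation test gave p = 0.0234. With 7 pairs, PCL12 replicate 1 being the sole PCL12 pair, the exact permutation p was 0.0625, and without the pairs of the mitochondria-rich libraries it was 0.0312, with 6 of 7 pairs higher.

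For IRF7, the inducible amplifier of type I interferon, no difference passed the test at 4 h. Stimulated HG3 cells held 62.9, 55.6 and 39.7 CPM against 67.1, 110.0 and 52.5 CPM in their partners, and the Log2FC of −0.54 (SE 0.31, nominal P value 0.0939, adjusted p = 1 in edgeR) had a 95% interval from −1.17 to 0.10. The 110.0 CPM came from the mitochondria-rich library, and without such libraries the Log2FC was −0.18. The estimates were 0.03 in MEC2 and −0.11 in PCL12, and 7 of 9 pairs were lower after CpG (mean log2 ratio −0.17 ± 0.41, exact permutation p = 0.258). IRF3, the constitutive partner of IRF7 downstream of TBK1, ranged from 54.1 to 135.4 CPM over all libraries, and its highest value came from MEC2 CpG replicate 2. Its mean log2 ratio was 0.00 ± 0.45, with 7 of 9 pairs lower and the pair of MEC2 replicate 2 at 1.13 (exact permutation p = 0.996). Of the annotated exon bases of IRF3, 19.3% overlap BCL2L12 on the opposite strand.

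For IRF4 no difference passed the test. Its values in HG3 were 1414.3, 743.6 and 1560.1 CPM unstimulated and 1407.1, 1170.1 and 1540.7 CPM stimulated, so that 2 of the pairs were level and the difference came from replicate 2. In MEC2 they were 860.9, 850.8 and 1313.5 against 1046.2, 1104.8 and 1197.3 CPM, and in PCL12 480.2, 690.4 and 1015.7 against 562.8, 712.1 and 827.4 CPM. The mean log2 ratio was 0.13 ± 0.29 with 5 of 9 pairs higher (exact permutation p = 0.250). In both MEC2 and PCL12 replicate 3 the unstimulated sample held more IRF4 than its partner.

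For IRF1 and IRF2, the activator and the antagonist at interferon-response elements, no difference passed the test either. IRF1 lay between 63.1 and 134.8 CPM, with 7 of 9 pairs lower after CpG and a mean log2 ratio of −0.08 ± 0.20 (exact permutation p = 0.277). The pair of PCL12 replicate 1, at −0.56, was the only one beyond 0.2 in either direction. IRF2 lay between 22.5 and 73.7 CPM, with a mean log2 ratio of −0.11 ± 0.39 (exact permutation p = 0.484), and its lowest value was that of MEC2 CpG replicate 2. IRF9, the DNA-binding subunit of ISGF3, held 0.879 to 6.48 CPM and its highest level was again in MEC2 CpG replicate 2. Its mean log2 ratio was −0.07 ± 0.68 with 4 of 9 pairs higher (exact permutation p = 0.770). Other genes share 23.9% of the annotated exon bases of IRF9 on the same strand, and 22.9% of those of IRF1 on the opposite strand. How reads in such overlaps were counted is not given in the sources used here, so the levels of IRF9 and IRF1 are uncertain to that extent. C5orf56, the older name of a gene that runs antisense to IRF1, had a Log2FC of −0.20 in HG3 (nominal P value 0.557), −0.21 in MEC2 (nominal P value 0.555) and −0.37 in PCL12 (nominal P value 0.288), and was lower in 7 of 9 pairs (mean log2 ratio −0.28 ± 0.39).

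A difference between lines in the CpG response did not pass the test for any member. At an adjusted p of 0.05 the differences MEC2 minus HG3 (0% of all genes called), PCL12 minus HG3 (0.00314%) and MEC2 minus PCL12 (0%) gave 0 of 8 members in edgeR, and 0 at a nominal P value under 0.05 (4.1%, 4.16% and 3.23% of all genes). With the block the nominal counts were 1 (IRF5, 0.59, nominal P value 0.0438, adjusted p = 1), 0 and 0 (3.53%, 2.39% and 1.36% of all genes). DESeq2 and limma-voom called 0 members as well. The smallest P value without the block was that of IRF5 for MEC2 minus HG3, a difference of Log2FC of 0.67 (SE 0.36, nominal P value 0.0779, adjusted p = 1). It was 0.33 without MEC2 CpG replicate 2 and 0.27 (nominal P value 0.384) without both mitochondria-rich libraries. For IRF8 the 3 differences ran from 0.05 to 0.11, with 95% intervals as wide as −1.11 to 1.2. These values depended on single HG3 libraries: MEC2 minus HG3 was 0.45 without HG3 unstimulated replicate 2 and −0.57 without HG3 unstimulated replicate 3, and PCL12 minus HG3 was 0.40 and −0.63.

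Unstimulated cells differed between lines in IRF5. The 3 MEC2 samples held 112.3, 103.7 and 100.3 CPM, below all HG3 samples (223.1 to 298.4 CPM) and all PCL12 samples (264.4 to 364.5 CPM). IRF5 was lower in MEC2 than in HG3 with a Log2FC of −1.36 (SE 0.26, adjusted p = 0.000674 in edgeR), or 0.388 of the HG3 level, and it was the 1 of 8 members called (9.78% of all genes called, 4.97% lower). Against PCL12 the Log2FC was −1.57 (SE 0.26, adjusted p = 0.000695), or 0.337 of the PCL12 level, again 1 of 8 members (2.05% called, 1.53% lower). PCL12 and HG3 did not differ detectably in IRF5 (0.20, 95% interval −0.32 to 0.73), and 0 of 8 members were called between them in edgeR (9.44% called), with 2 at a nominal P value under 0.05 (21.8% of all genes), IRF4 and IRF8. PCL12 replicate 1, the library pair whose low levels served to choose the MEC2-abundant genes, had the highest IRF5 of its line (364.5 and 490.2 CPM). With it as the sole PCL12 sample the Log2FC of MEC2 against PCL12 was −1.82. That fit assumes the lone sample to vary like the other groups. Stimulated MEC2 cells stayed below stimulated HG3 cells in IRF5 as well, at 115.8 to 242.5 against 271.7 to 290.0 CPM.

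IRF8 had the opposite order for MEC2 and HG3. The unstimulated MEC2 samples (267.6 to 409.5 CPM) lay above all HG3 samples (57.5 to 255.9 CPM), with a Log2FC of 1.25 (SE 0.40, nominal P value 0.00511, adjusted p = 0.0517 in edgeR), or a fold change of 2.37, just short of the threshold. Of 10 other analysis settings, 8 put it under 0.05. The replicate block (1.25, adjusted p = 0.128) and leaving out the mitochondria-rich libraries (0.87, adjusted p = 0.222) did not. Of the 6 fits with 1 library left out, 1 was under 0.05, without HG3 replicate 3 (1.92, adjusted p = 0.00125), and the highest was that without HG3 replicate 2 (0.89, adjusted p = 0.144). The replicate numbers moved with this difference: in replicates 1 and 2 unstimulated HG3 held 125.1 and 57.5 CPM and MEC2 409.5 and 363.8 CPM, whereas in replicate 3 HG3 held 255.9, MEC2 267.6 and PCL12 204.4 CPM. The 3 lines were therefore close in IRF8 in replicate 3, in the stimulated samples too (256.8, 327.6 and 250.3 CPM). PCL12 against HG3 gave 0.93 (SE 0.40, adjusted p = 0.170), and MEC2 against PCL12 0.32 (SE 0.39, adjusted p = 0.854).

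IRF4 decreased from HG3 over MEC2 to PCL12 in the means (1240 ± 435, 1010 ± 264 and 729 ± 270 CPM), and no difference between neighbours in that order was called. HG3 against PCL12 gave a Log2FC of −0.77 for PCL12 (SE 0.29, adjusted p = 0.110 in edgeR), and −1.03 (adjusted p = 0.00936) without the mitochondria-rich libraries, one of which was the HG3 sample with 743.6 CPM. In that fit MEC2 against HG3 was −0.56 (95% interval −1.08 to −0.04, adjusted p = 0.202). With PCL12 replicate 1 as the sole PCL12 sample, a fit that takes its spread from the other groups, PCL12 against HG3 was −1.35 (adjusted p = 0.130) and MEC2 against PCL12 1.05 (95% interval 0.09 to 2.01, adjusted p = 0.423) in place of 0.47 (adjusted p = 0.561). IRF1, IRF2, IRF3, IRF7 and IRF9 were not called between any 2 unstimulated lines, with Log2FC between −0.33 and 0.65.

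**Figure D3:**
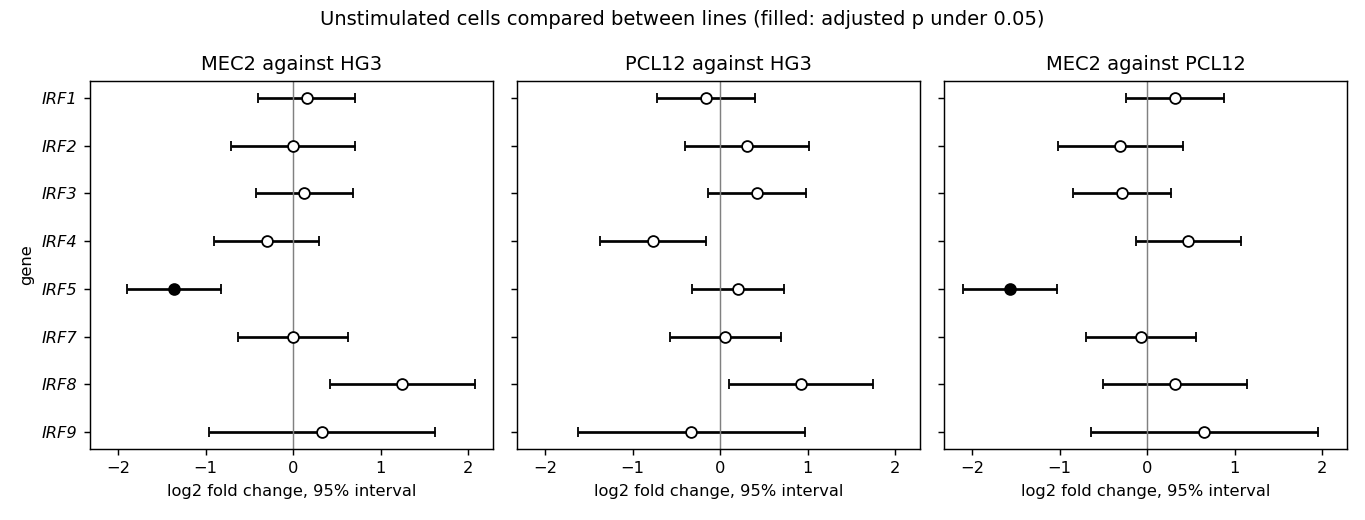
Log2 fold change of each IRF gene between unstimulated lines (circle) with its 95% interval (bar), 1 panel a comparison; filled circles have an adjusted p under 0.05. IRF5 is filled in both panels with MEC2 as the first line, at −1.36 and −1.57, and IRF8 in MEC2 against HG3 lies at 1.25 with an open circle.

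The ratio of IRF4 to IRF8, a balance named here after its values had been seen, separated HG3 from the other lines in all 18 libraries. It was 6.0 to 12.9 in the 6 HG3 libraries, 1.93 to 4.91 in MEC2 and 1.52 to 4.97 in PCL12, in CPM, and within MEC2 and PCL12 the replicate 3 libraries had the highest ratios (3.65 and 4.91, 3.31 and 4.97) whereas within HG3 they had the lowest (6.0 and 6.1). Over the 18 libraries, the genes whose log2 profile lay closest to that of IRF5 among 10658 genes were ACADVL, a mitochondrial acyl-CoA dehydrogenase, with a root mean square difference of 0.243, and DLGAP4, with 0.266. ACADVL shared the low MEC2 level (114 CPM unstimulated, against 271 in HG3 and 281 in PCL12).

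Among 15 genes that lead to IRF activation, 0 were called after CpG in any line without the replicate block (0.00314%, 0.00314% and 0% of all genes in HG3, MEC2 and PCL12). At a nominal P value under 0.05 the count was 0 in HG3 (3.73% of all genes), 2 in MEC2, both higher (2.46%), and 0 in PCL12 (2.09%). TLR9, the receptor of the oligonucleotide, was listed at 0 to 0.203 CPM, but 99.7% of its exon bases lie inside an overlapping gene on the same strand, so its level cannot be read from these counts. IKBKE, the kinase that with TBK1 phosphorylates IRF3 and IRF7, was at 33.2, 27.1 and 46.6 CPM in unstimulated and 51.2, 88.7 and 54.7 CPM in stimulated MEC2 cells, groups that did not overlap (4.72% of all genes in MEC2). Its Log2FC in MEC2 was 0.86 (SE 0.28, nominal P value 0.0052, adjusted p = 1), and with the replicate block IKBKE was called (0.85, adjusted p = 0.0317 in edgeR, 0.295% of all genes called higher), a call lost without the pair of replicate 2 (0.44, adjusted p = 0.510). TRAF3, an adaptor and ubiquitin ligase upstream of TBK1, was higher in 9 of 9 pairs by a mean log2 ratio of 0.42 ± 0.29, with an adjusted p of 1 for the averaged effect, 0.0685 with the block and 0.00395 with the block and without the mitochondria-rich pairs. UNC93B1, the chaperone of endosomal TLRs, had the smallest P value of the list in HG3 (−0.39, nominal P value 0.146).

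Of 12 partner proteins, 0 were called in the fit without the block in any line (0.00314%, 0.00314% and 0% of all genes in HG3, MEC2 and PCL12). At a nominal P value under 0.05 that fit had 0 in HG3 (3.73% of all genes), 2 in MEC2 (2.46%) and 1 in PCL12 (2.09%), all higher. With the block, 2 were called for the averaged effect, both higher (0.417% of all genes called higher). BATF, the AP-1 factor that binds with IRF4 and IRF8, held 86.4, 74.6 and 107.5 CPM in unstimulated and 243.6, 135.4 and 166.8 CPM in stimulated MEC2 cells, and 123.6, 153.0 and 100 against 292.9, 196.6 and 192.1 CPM in PCL12. In both lines all stimulated samples lay above all unstimulated ones, where 4.72% of all genes in MEC2 and 4.55% in PCL12 had groups without overlap. In HG3 the BATF groups overlapped (66.7, 264.0 and 135.2 against 87.7, 165.0 and 131.6 CPM). BATF had a Log2FC of 1.02 in MEC2 (SE 0.36, nominal P value 0.00833, a DEG by the study's definition) and 0.86 in PCL12 (SE 0.35, nominal P value 0.0238), each with an adjusted p of 1. With the block it was called in MEC2 (1.00, adjusted p = 0.00155) and for the averaged effect (0.58, adjusted p = 0.000726), and it reached 0.85 with an adjusted p of 0.0595 in PCL12. Without the mitochondria-rich pairs, a setting chosen after the data were seen, BATF was called in both MEC2 (adjusted p = 2.3e-10, 0.474% of all genes called higher) and PCL12 (adjusted p = 1.07e-09) with the block. MEC2 kept few pairs there, so values this small rest on a spread drawn largely from many genes and do not measure that of BATF. In the same setting, the difference of the BATF effect between MEC2 and HG3 was 0.89 (adjusted p = 0.00801, 0.131% of all genes called higher). Over all libraries that difference was not called, neither without the block (1.30, adjusted p = 1) nor with it (1.10, adjusted p = 0.0864). IKZF1, the lymphoid zinc finger factor Ikaros, was higher in 8 of 9 pairs (mean log2 ratio 0.51 ± 0.43) and called for the averaged effect with the block (0.51, adjusted p = 0.00612). SPIB, the ETS partner of IRF4 and IRF8, was higher in 7 of 9 pairs, with 30.0 ± 1.95 CPM in stimulated against 33.5 ± 6.4 in unstimulated HG3, 66.9 ± 25.9 against 41.4 ± 14.6 in MEC2, and 105 ± 53.2 against 74.7 ± 33.0 in PCL12. Its averaged effect was not called without the block (0.34, adjusted p = 1) or with it (0.33, adjusted p = 0.425), and was 0.38 with an adjusted p of 0.00221 with the block and without the mitochondria-rich pairs (0.846% of all genes called higher), a setting added after the data were seen. BATF2 had the smallest P value of the list in HG3 (nominal P value 0.0957), at 1.60 CPM or less in every HG3 library.

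**Figure D4:**
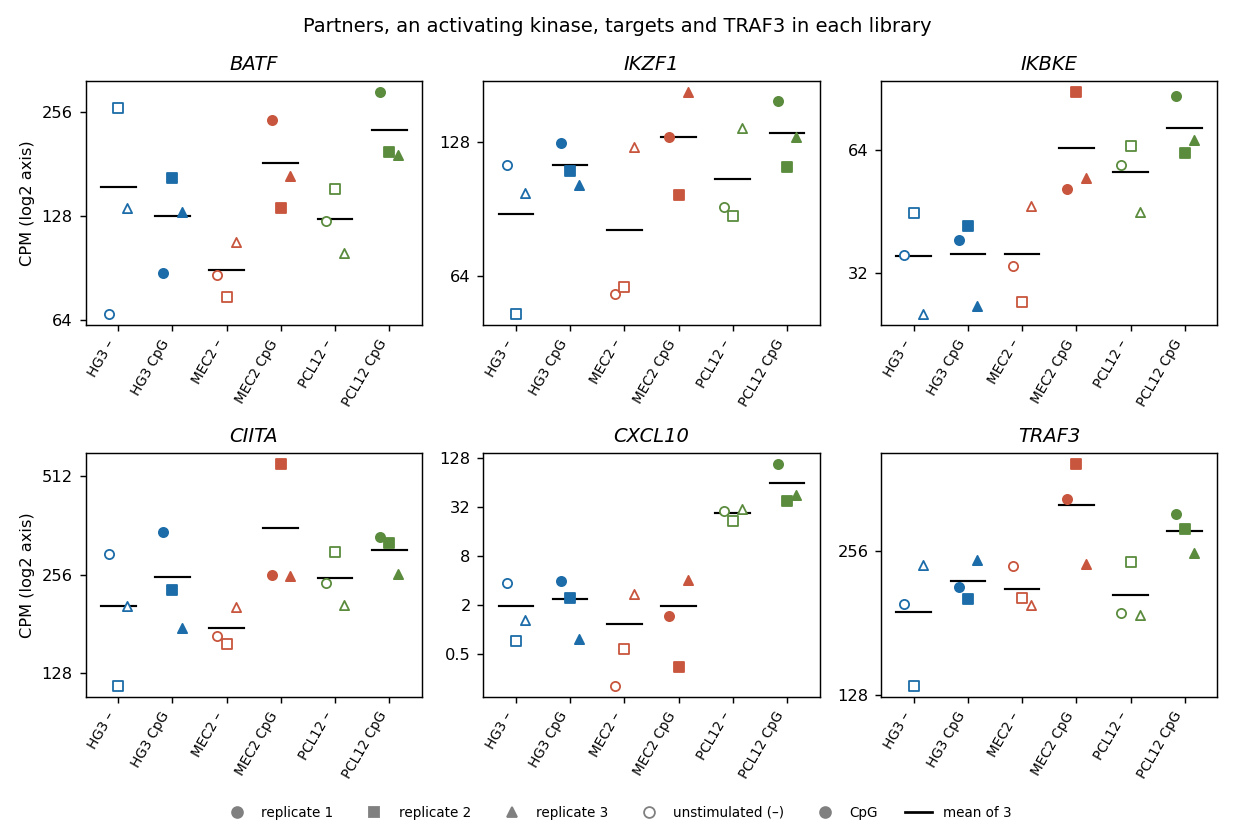
Level in CPM (log2 axis) in each of the 18 libraries for BATF, IKZF1, IKBKE, CIITA, CXCL10 and TRAF3; open symbols are unstimulated and filled symbols stimulated, the shape gives the replicate and the bar the mean of 3. Stimulated samples of BATF lie above all unstimulated ones in MEC2 and PCL12, and CXCL10 is at most 4.05 CPM outside PCL12.

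The interferon genes themselves were scarce. IFNB1 was at 0 to 0.737 CPM, IFNA1 at 0 to 0.154 CPM, IFNA2 at 0 to 1.86 CPM and IFNG, the type II interferon, at 0 to 2.51 CPM. IFNA2 held 0.374 to 1.37 CPM in unstimulated HG3 and 0.327 to 1.26 CPM in unstimulated MEC2, and IFNG was higher in 8 of 9 pairs (mean log2 ratio 0.34 ± 0.26), with its highest mean in stimulated MEC2 (1.97 ± 0.741 CPM, against 1.22 ± 0.605 unstimulated). By the adjusted p, 0 of the 5 ligand genes IFNB1, IFNA1, IFNA2, IFNG and IFNL1 were called in any line after CpG (0.00314%, 0.00314% and 0% of all genes in HG3, MEC2 and PCL12 without the block). Their smallest P values were those of IFNA1 in HG3 (nominal P value 0.109), IFNB1 in MEC2 (0.119) and IFNL1 in PCL12 (0.132), each with 0 counts in most libraries of the line. Of 9 receptor and ISGF3 genes, 0 were called in any line, where almost no genes were (0.00314%, 0.00314% and 0% in HG3, MEC2 and PCL12 without the block). STAT2, the ISGF3 subunit that binds IRF9, was at 74.9 ± 20.5 CPM in stimulated against 64.7 ± 47.1 CPM in unstimulated HG3, where unstimulated replicate 2 held 17.2 CPM, at 85.8 ± 38.9 against 81.8 ± 11.3 in MEC2 and at 64.8 ± 7.91 against 89.2 ± 16.8 in PCL12. STAT2 was lower in 7 of 9 pairs, and both pairs in which it was higher contained a mitochondria-rich library. Its averaged effect with the block was 0.01 (adjusted p = 1), and −0.38 (adjusted p = 0.00148 in edgeR, 0.506% of all genes called lower) without those pairs. Leaving them out, a choice made after the data were seen, removed both pairs in which STAT2 was higher. The direction of the pairs kept was thus fixed beforehand, and this value is no independent test of it. TYK2, the kinase of the type I receptor, gave 0.87 in MEC2 (nominal P value 0.00607, adjusted p = 1), which came from 1096.9 CPM in CpG replicate 2 against 319.9 to 450.3 CPM in the other 5 MEC2 libraries, and IFNAR2, a chain of the type I receptor, gave −0.28 in HG3 (nominal P value 0.208). IFNAR2 was lower in 9 of 9 pairs by a mean log2 ratio of −0.21 ± 0.17, and 0.21% of all genes were lower in all 9.

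Of 21 genes that interferon and IRFs switch on, 0 were called in HG3, MEC2 or PCL12 (0.00314%, 0.00314% and 0% of all genes without the block). The fit without the block had 0 of them at a nominal P value under 0.05 in each line (3.73%, 2.46% and 2.09% of all genes). The median Log2FC of the list was −0.09 in HG3, −0.33 in MEC2 and −0.06 in PCL12, against 0.00, 0.00 and 0.02 over all genes tested, and 14, 17 and 11 of the 21 lay below 0. With the block, 6 of the 21 were lower at a nominal P value under 0.05 in MEC2 (1.58% of all genes), 2 in HG3 (1.37%) and 7 for the averaged effect (1.82%), and 1 was higher both in MEC2 and for the averaged effect, CXCL10. In PCL12 2 passed that threshold (1.69% of all genes in either direction), OAS1 lower and CXCL10 higher. Those lower for the averaged effect included ISG15 (−0.36, nominal P value 0.00301) and OAS1 (−0.35, nominal P value 0.00336), and none of the lower genes was called over all pairs (smallest adjusted p 0.269 for the averaged effect, ISG15, and 0.270 in MEC2, IFIT1). OAS1, which senses viral RNA, was lower in 9 of 9 pairs (mean log2 ratio −0.35 ± 0.26), and 0.21% of all genes were lower in all 9. With the block, CXCL10 was the 1 gene called for the averaged effect (0.75, adjusted p = 0.00652, 0.417% of all genes called higher). CXCL10, a chemokine that both interferon and NF-κB induce, held 28.4, 21.5 and 30.3 CPM in unstimulated and 108.4, 38.3 and 44.7 CPM in stimulated PCL12 cells, without overlap (4.55% of all genes in PCL12), and no more than 4.05 CPM in HG3 and MEC2. Its Log2FC in PCL12 was 1.26 (SE 0.91, adjusted p = 1), and 1.11 with an adjusted p of 0.0595 with the block. Without the mitochondria-rich pairs, OAS1 (−0.31, adjusted p = 0.0294) and IFIT1 (−0.49, adjusted p = 0.0474) were called lower for the averaged effect. XAF1 in HG3 (−0.64, nominal P value 0.135) and PSMB9 in MEC2 (−0.51, nominal P value 0.0783) had the smallest P values of the list in their lines without the block.

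Among 6 B-cell targets of IRF4 and IRF8, CIITA, the master regulator of MHC class II genes, was called with the block in MEC2 (0.91, adjusted p = 0.00895 in edgeR, 0.295% of all genes called higher) and for the averaged effect (0.51, adjusted p = 0.00805, 0.417%). It held 166.9, 156.9 and 204.0 CPM in unstimulated and 255.1, 556.3 and 253.5 CPM in stimulated MEC2 cells, without overlap (4.72% of all genes), and a Log2FC of 1.01 (nominal P value 0.0044, adjusted p = 1) in the fit without the block. Without replicate 2, whose stimulated sample was rich in mitochondrial counts, the MEC2 value with the block was 0.47 (adjusted p = 0.0627). PRDM1, which encodes the plasma-cell regulator BLIMP1, was higher in 4 of 9 pairs (mean log2 ratio −0.01 ± 0.34) at 17 ± 0.109 CPM in stimulated and 17.7 ± 1.04 in unstimulated MEC2, 41.0 ± 5.08 and 47.5 ± 17.4 in PCL12 and 37.0 ± 24.4 and 33.9 ± 25.5 in HG3. BCL6 had the smallest P value of this list in HG3 (−1.75, nominal P value 0.124, at 0 to 4.13 CPM).

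Unstimulated lines differed in several genes around the family. TMEM173, which encodes the DNA-sensing adaptor STING that activates IRF3, was at 22.2 ± 8.49 CPM in HG3 against 1.85 ± 0.432 in MEC2 (Log2FC −3.59, adjusted p = 1.74e-05 in edgeR) and 2.28 ± 1.83 in PCL12 (−3.28, adjusted p = 4.39e-05). UNC93B1 was higher in MEC2 (1.01, adjusted p = 0.0122) and PCL12 (0.92, adjusted p = 0.0245) than in HG3, as were IRAK1, a kinase of the MYD88 complex, in MEC2 (1.03, adjusted p = 0.0228) and TLR7 in PCL12 (1.34, adjusted p = 0.0147). IFNGR1, a chain of the interferon-γ receptor, was lower in MEC2 (−1.29, adjusted p = 0.000429) and PCL12 (−2.15, adjusted p = 6.6e-07) than in HG3, and JAK1, a kinase of interferon receptors, was higher in MEC2 than in HG3 (0.99, adjusted p = 0.0347). HG3 unstimulated replicate 2, rich in mitochondrial counts, held the lowest HG3 level of JAK1 (97.8 CPM) and IRAK1 (75.4 CPM), and without the mitochondria-rich libraries JAK1 was not called (0.66, adjusted p = 0.0977), nor was TLR7 in PCL12 (1.12, adjusted p = 0.0760), while IRAK1 was (0.69, adjusted p = 0.0446). In counts, 4 of 15 activating genes, 4 of 12 partners and 3 of 21 interferon targets were called between MEC2 and HG3, where 9.78% of all genes were.

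Of the partners, BATF3, a BATF relative that works with IRF8 in dendritic cells, was at 59.9 ± 22 CPM in HG3, 8.65 ± 2.21 in MEC2 and 30.9 ± 13.0 in PCL12, lower in MEC2 than in HG3 (−2.79, adjusted p = 1.17e-06) and than in PCL12 (−1.83, adjusted p = 0.00102). TCF3, which encodes the B-lineage factor E2A, was higher in MEC2 (1.12, adjusted p = 0.00205) and PCL12 (1.38, adjusted p = 0.000227) than in HG3. ETV6, an ETS repressor, was lower in MEC2 than in HG3 (−1.12, adjusted p = 0.0089) and PCL12 (−1.07, adjusted p = 0.0417), and IRF2BP2, a corepressor of IRF2, was lower in PCL12 than in HG3 (−0.84, adjusted p = 0.0272). IKZF3, the Ikaros relative Aiolos, and SPIB were higher in PCL12 than in HG3 (0.85, adjusted p = 0.0397, and 1.16, adjusted p = 0.0484). Interferon targets moved in both directions. GBP1, an interferon-induced GTPase, was at 3.95 ± 1.61 CPM in HG3 and 46.6 ± 6.4 in MEC2 (3.56, adjusted p = 1.69e-07) and 36.8 ± 7.16 in PCL12 (3.22, adjusted p = 6.54e-07). OAS3, which makes the second messenger of RNase L, was also higher in MEC2 (1.87, adjusted p = 0.00051) and PCL12 (1.41, adjusted p = 0.00759) than in HG3, whereas IFIT2, an inhibitor of translation, was lower in MEC2 (−1.85, adjusted p = 0.000459) and PCL12 (−1.91, adjusted p = 0.000342). With replicate 1 as the sole PCL12 sample, an assumption on its spread as above, TMEM173, TLR7, IFNGR1, TCF3, SPIB, GBP1 and IFIT2 were still called against HG3, while UNC93B1 (adjusted p = 0.136), OAS3 (0.173), CXCL10 (0.208), IRF2BP2 (0.356) and IKZF3 (0.508) were not. Without the mitochondria-rich libraries, IKZF3 (adjusted p = 0.0904), OAS3 (0.0904), CXCL10 (0.0697) and SPIB (0.139) were not called between PCL12 and HG3. Between MEC2 and PCL12, BATF3 was still called with replicate 1 as the sole PCL12 sample, and ETV6 (adjusted p = 0.0774), CXCL10 (0.203) and PSMB9 (0.459) were not. PSMB9, an immunoproteasome subunit, was higher in MEC2 than in PCL12 (1.12, adjusted p = 0.0295), and CXCL10 was lower there (−4.49, adjusted p = 0.0487) and higher in PCL12 than in HG3 (3.77, adjusted p = 0.0333).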

How the data were processed

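RNA of 18 samples (HG3, MEC2 and PCL12, 3 CpG-stimulated and 3 unstimulated each) was analysed from the deposited table of raw counts per gene symbol. Per the labels, RNA was extracted with a Promega ReliaPrep system and libraries were made with Lexogen stranded QuantSeq, while the methods of the study name a Qiagen kit, a stranded reverse protocol and single reads on a NovaSeq. The submitters' processing notes name FastQC, MultiQC, Trimmomatic, STAR, featureCounts and hg38, and the annotation, the strand setting and the handling of overlapping genes and duplicate reads are not given in the sources used here. PCR copies may therefore be counted as reads, and floors and intervals cover counting error and the spread between these samples alone. All columns were assigned by the labels.

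The 8 members, the gene lists and the tests were chosen with earlier results of these data known. A gene needed 10 counts summed over the 18 libraries, which 31872 of the 42248 detected genes had. TMM factors scaled the counts, and robust quasi-likelihood models were fitted in edgeR 4.0.16 (R 4.3.3), 1 mean a group, 12 residual degrees of freedom, with Benjamini-Hochberg adjusted p-values. The study itself used limma. Two-sided exact sign-flip permutation tests used log2 ratios of TMM-scaled CPM plus 0.5 in 9 pairs, and 3 samples against 3 cannot give a permutation p under 0.1. The sign-flip p-values were not adjusted for the 8 members. Alternatives were DESeq2 1.42.0, limma-voom (limma 3.58.1), RLE factors, library totals, other filters, a replicate block, each line fitted alone, PCL12 replicate 1 alone, no mitochondria-rich libraries and each library left out in turn. Chosen after seeing the data were limma-voom with the block, the block with PCL12 replicate 1 alone, and the block and the sign-flip test without the mitochondria-rich pairs. The edgeR steps were tested on simulated data. The named genes were all 8 members, list genes past an adjusted p of 0.05 after CpG with or without the block, up to 3 a list and comparison between unstimulated lines, the 1 list gene with the smallest P value in each CpG comparison of a line, and TLR9, SPIB, STAT2 and PRDM1, and the results of some genes under this rule are not reported here. Genes called only without the mitochondria-rich pairs, and TRAF3, were named after their values were seen. Positions and overlaps are from GENCODE release 44 on GRCh38.

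The description of the series pairs 1 stimulated and 1 unstimulated sample in each replicate series. After removal of the group means, the samples of a pair correlated by 0.391 to 0.643 in HG3, 0.0853 to 0.72 in MEC2 and 0.598 to 0.735 in PCL12, over 10659 genes that averaged 5 CPM or more. Within groups no 2 libraries were copies: their chi-square statistic was 17.4 to 380 for each gene.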

Additional observations from a re-analysis of the deposited data

How the results depend on the processing

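The lower IRF5 level of MEC2 held its direction and an adjusted p under 0.05 against HG3 and PCL12 in every setting and with each library left out (−1.24 to −1.48 and −1.44 to −1.82). Between unstimulated MEC2 and HG3, 2 members in place of 1 were called with DESeq2, limma-voom, limma-voom with the replicate block, RLE factors, library totals, filterByExpr, no filter and a mean of at least 1 CPM, and 1 to 2 with a library left out, the second being IRF8. Between PCL12 and HG3, 1 in place of 0 was called with DESeq2, limma-voom, limma-voom with the block, no filter and no mitochondria-rich libraries, and 0 to 1 with a library left out: IRF4 in each but no filter, where it was IRF8, and without HG3 unstimulated replicate 3, where it was IRF8 (1.61, adjusted p = 0.00608 in edgeR). IRF4 was called without HG3 unstimulated replicate 2 (−1.01, adjusted p = 0.0146) and without PCL12 unstimulated replicate 3 (−1.06, adjusted p = 0.0381). For CpG, the replicate block gave 1 member in place of 0 for the averaged effect and changed no other call of a member, and the block without the mitochondria-rich pairs gave 2 for the averaged effect and 1 in PCL12. The sign-flip test, not adjusted for the number of members, gave 2 members under 0.05 (4.46% of all genes), and 1, IRF8, with PCL12 replicate 1 alone. The IRF8 effect in HG3 ran from −0.02 to 1.01 with a library left out. The cause of these changes was not tested. Of 1728 values of single members under other settings, 143 differed in sign from the value given, none of which had been called. IRF9, with 24 to 263 counts a library, was the least precise member.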
